A study of Homo sapiens with 8 samples.

Results

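The integrin and laminin genes of BEAS-2B cells were followed across nickel exposure and after its end. The members were the listed genes whose symbol starts with ITGA or ITGB, without binding proteins, antisense genes and ITGBL1, together with the symbols LAMA, LAMB or LAMC followed by a single digit. This gave 38 of the 25411 listed genes, of which 18 encode integrin alpha chains, 8 integrin beta chains and 12 laminin chains. BEAS-2B cells are a human bronchial epithelial line that was immortalised. RNA-Seq was performed on 8 libraries in 4 groups of 2, which the study describes as biological replicates. Untreated cells (UT) received no nickel. For Ni-E, cells spent 6 weeks in 100 µM NiCl2, which dissolves to free nickel ions. The washed-out Ni-W cells had the same exposure and were then grown from a single cell without nickel for more than 6 months, so they stand for 1 randomly picked clonal population. The HCl3 libraries are labelled with the treatment of Ni-W, but how long they grew without nickel and how they relate to the Ni-W clone are not given. The labels give experiment 2 for Ni-E, experiments 3 and 4 for the HCl3 libraries and leave UT and Ni-W unnumbered, so experiment and group cannot be told apart. Libraries held 26383920 to 45692298 counted reads.

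Integrins are receptors made of an alpha and a beta chain that span the cell membrane and tie the matrix outside to the actin or keratin skeleton inside. Laminins are secreted trimers of an alpha, a beta and a gamma chain that form the sheet of the basement membrane. Airway epithelial cells rest on this sheet and hold to it mainly through laminin-binding integrins, while receptors for fibronectin and vitronectin are prominent in spreading, migrating and healing epithelium. Since chains act in such pairs and trimers, they are described here by their partners and ligands.

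Promoter sequences are shown for 3 members. ITGA4 had the largest difference from UT of all members. LAMA5 and LAMB3 were the laminin genes called above UT in each nickel-treated group, as the integrin genes ITGA4, ITGB3, ITGB4 and ITGB5 also were. The sequences are the 250 bases before the RefSeq start in GRCh38.p14, a later build than the hg19 coordinates of the counts. They were available for 26 of the 38 members. The ITGA4 sequence is from chr2:181457136-181457385 on the plus strand, that of LAMA5 from chr20:62367313-62367562 on the minus strand, and that of LAMB3 from chr1:209652426-209652675 on the minus strand. Capitals mark the motifs searched on both strands, the Sp1 box GGGCGG, the AP-1 site TGACTCA, the hypoxia response core ACGTG and the E-box CACCTG, none of which overlapped another here.
ITGA4: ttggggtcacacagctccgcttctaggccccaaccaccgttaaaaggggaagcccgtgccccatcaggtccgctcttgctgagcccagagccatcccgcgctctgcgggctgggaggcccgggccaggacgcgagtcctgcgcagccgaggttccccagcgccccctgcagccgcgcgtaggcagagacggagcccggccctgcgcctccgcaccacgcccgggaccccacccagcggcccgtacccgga
LAMA5: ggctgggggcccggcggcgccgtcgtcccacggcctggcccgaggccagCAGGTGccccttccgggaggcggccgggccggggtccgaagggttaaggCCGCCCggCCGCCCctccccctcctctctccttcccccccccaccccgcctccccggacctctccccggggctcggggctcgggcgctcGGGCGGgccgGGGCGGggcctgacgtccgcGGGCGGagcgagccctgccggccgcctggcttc
LAMB3: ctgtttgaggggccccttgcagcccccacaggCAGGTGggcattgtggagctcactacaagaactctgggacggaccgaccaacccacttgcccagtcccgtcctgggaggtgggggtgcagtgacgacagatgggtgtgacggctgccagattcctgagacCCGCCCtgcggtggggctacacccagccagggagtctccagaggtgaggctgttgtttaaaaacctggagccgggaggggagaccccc
The ITGA4 window was 72.8% G or C with 25 CpG dinucleotides and held none of the 4 motifs. The LAMA5 window was 82.8% G or C with 32 CpG dinucleotides, and the LAMB3 window 64.0% with 8, beside medians of 58.0% and 11 over 27305 promoters. Both laminin promoters held an Sp1 box, found in 42.3% of all promoters, and an E-box, found in 17.5%. Among the 26 members with a sequence, 13 held an Sp1 box, 7 an E-box, 2 the hypoxia response core (18.7% of all promoters) and 1 the AP-1 site (4.16%). These are matches of letters only, and the start sites used in these cells were not measured.

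Levels are given as RPKM, reads scaled by transcript length and by the mapped reads of the library, in which genes can be compared with each other. Of the 38 members, 20 reached 1 RPKM in both libraries of at least 1 group. ITGB1, the common partner of most alpha chains, had the highest level, with 153 and 173 RPKM for UT, 140 and 130 for Ni-E, 177 and 172 for Ni-W, and 177 and 171 for HCl3. The UT range of ITGB1 overlapped those of Ni-W and HCl3, and Ni-E lay under the other groups. The most abundant alpha chains were ITGA3, which forms the main laminin receptor of epithelia, and ITGA5, which forms the classical fibronectin receptor. ITGA5 measured 48.3 and 47.2 RPKM for UT, 57.5 and 63.2 for Ni-E, 59.4 and 58.3 for Ni-W, and 67.1 and 67.2 for HCl3, and was called in no comparison. Among laminins, LAMC1 (38.1 to 88.2 RPKM) exceeded the beta chains LAMB2 (19.1 to 33.6 RPKM) and LAMB1 (12.7 to 17.9 RPKM) in every library, and alpha chains were the scarcest, with LAMA1 the highest of them at 2.15 to 7.32 RPKM. Because fewer expressing cells and less RNA per cell give the same count in bulk RNA, these levels do not tell them apart.

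**Figure D1:**
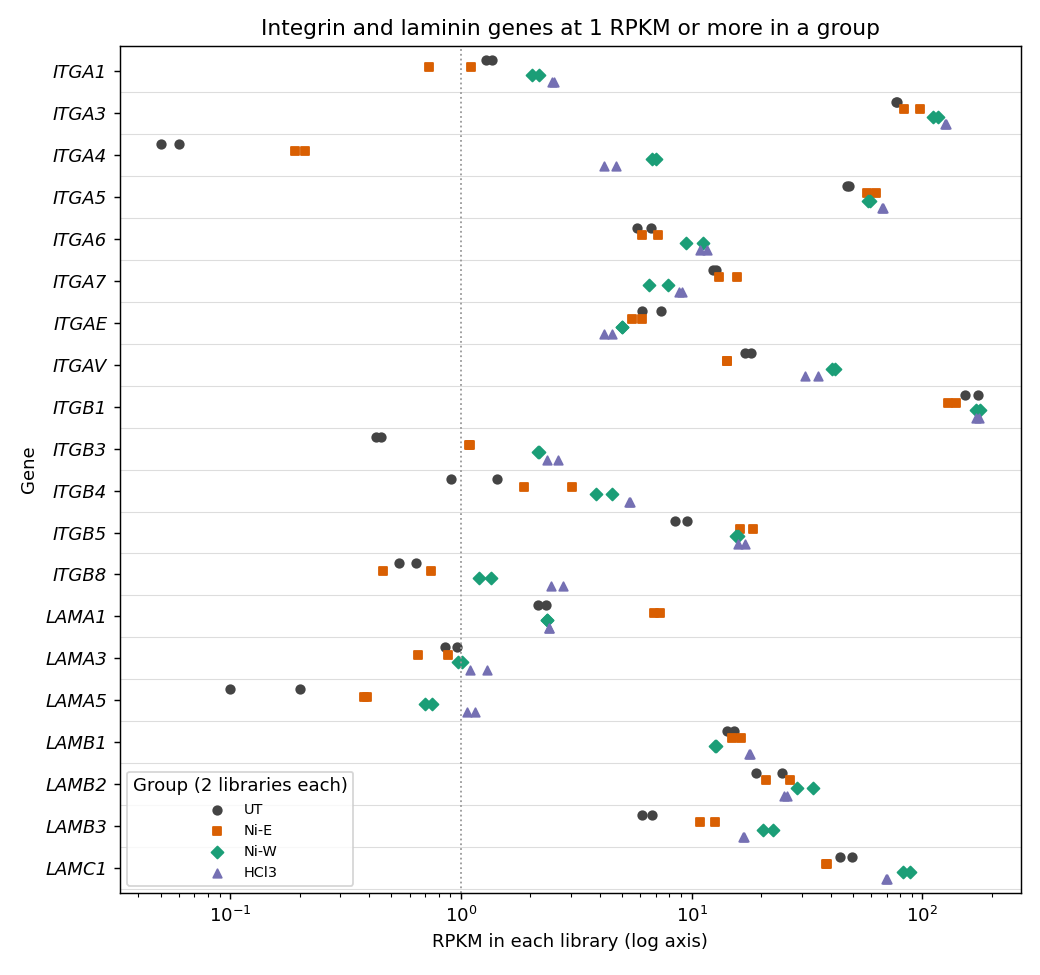
RPKM (log axis) of the 20 integrin and laminin genes that reached 1 RPKM in both libraries of a group, one point per library, with groups offset vertically within each gene. ITGA4 spans 0.05 RPKM (UT) to 7.01 RPKM (Ni-W), LAMA1 stands out in Ni-E alone, and ITGB1 lies at 130 to 177 RPKM throughout.

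Marker genes were read to check the label of an epithelial line. KRT8 (192 to 310 RPKM) and KRT18 (144 to 245 RPKM), keratins of simple epithelium, were high in all libraries. By contrast CDH1, the epithelial cadherin, was at 0.01 to 0.11 RPKM, KRT19 at or under 0.78 and EPCAM at 0.95 to 1.79. Of the basal airway markers, TP63 was at 0, KRT5 at or under 0.03 RPKM and KRT14 at or under 0.05. KRT17, also of that list, rose from 3.47 and 3.69 RPKM in UT to between 10.7 and 23.9 in the nickel-treated libraries. The leukocyte marker CD3E was at 0 and PTPRC at or under 0.04 RPKM, and the endothelial markers summed to at most 0.08 RPKM. Of the fibroblast markers DCN was at 0 and PDGFRA at or under 0.02 RPKM, while THY1 was at 137 to 186 RPKM. PDGFRB was at 10.6 to 27.9 RPKM and was called lower in Ni-E than in UT. LUM, at or under 0.91 RPKM, was called higher in Ni-E than in UT. CD68 was at 14.3 to 21.8 RPKM, and the leukocyte marker list summed to 17.2 to 22.9 RPKM over all libraries. CD14, a leukocyte marker, was at 1.06 to 1.96 RPKM in UT and Ni-E and at 2.84 to 4.15 in Ni-W and HCl3. The part of CD14, KRT17, PDGFRB or LUM in the results below was not tested. Chains typical of leukocytes were also near 0, with ITGAD, ITGAL, ITGAM, ITGAX, ITGB2 and ITGB7 at 0.17 RPKM or less in each library. ITGAE, the usual partner of ITGB7 on lymphocytes within epithelium, was the exception at 4.16 to 7.36 RPKM.

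Ni-E cells were compared with UT cells to find what differed while nickel was present. Differences are log2 fold changes from DESeq2, and a call required an adjusted P value below 0.05 together with 1.5-fold or more. In this comparison 7 of the 29 members tested were called and all were higher in Ni-E. Of all genes tested, 5.8% were called, 3.75% higher and 2.05% lower. The 7 members were the laminin chains LAMA1, LAMA5 and LAMB3 and the integrin chains ITGA4, ITGB3, ITGB4 and ITGB5. The other 31 of the 38 members, tested or not, were not called. The median log2 fold change was 0.14 over the 35 members with a P value and 0.01 over all such genes.

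LAMA1, the alpha chain best known from the laminin of embryonic basement membranes, showed the largest difference among the 3 laminin genes called under nickel. The UT libraries gave 2.34 and 2.15 RPKM and the Ni-E libraries 7.32 and 6.90, which DESeq2 put at 1.60 ± 0.13 (SE) on the log2 scale, 3.04-fold (adjusted P value = 2.48e-30). The 4 libraries of Ni-W and HCl3 lay between 2.36 and 2.41 RPKM. Both Ni-E libraries stood above the other 6, which lay between 2.15 and 2.41 RPKM. The fall from Ni-E was tested directly, with a log2 fold change of -1.58 ± 0.12 for Ni-W (adjusted P value = 3.72e-40) and -1.58 ± 0.11 for HCl3 (adjusted P value = 4.92e-47). Against UT the change was 0.04 ± 0.14 for Ni-W and 0.04 ± 0.13 for HCl3. LAMA1 was called in Ni-E against UT under each of the 16 alternative settings tried, with log2 fold changes of 1.32 to 1.76.

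LAMB3, the beta chain of the epithelial laminin that anchors hemidesmosomes, measured 6.72 and 6.11 RPKM for UT, 12.6 and 10.9 for Ni-E, 22.5 and 20.3 for Ni-W, and 16.6 and 16.9 for HCl3. The 4 groups did not overlap, and UT was the lowest. DESeq2 gave log2 fold changes against UT of 0.82 ± 0.14 for Ni-E (adjusted P value = 8.16e-07), 1.70 ± 0.12 for Ni-W (1.88e-41) and 1.31 ± 0.11 for HCl3 (7.62e-29). LAMA3, the alpha chain of that trimer, stayed between 0.65 and 1.30 RPKM and was called in no comparison. LAMB3 overlaps the listed gene of MIR4260 on the same strand.

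LAMA5, an alpha chain widespread in adult basement membranes, was scarce and was called in all 6 comparisons. It measured 0.20 and 0.10 RPKM for UT, 0.39 and 0.38 for Ni-E, 0.75 and 0.70 for Ni-W, and 1.15 and 1.06 for HCl3. No groups overlapped, and the order was UT, Ni-E, Ni-W and HCl3. Against UT it changed on the log2 scale by 1.32 ± 0.37 for Ni-E (adjusted P value = 0.00722), 2.25 ± 0.31 for Ni-W (6.09e-12) and 2.84 ± 0.27 for HCl3 (3.86e-24). Reads ran from 32 in a UT library to 542 in an HCl3 library. The sizes depended on the UT replicates: without UT replicate 1 the values were 1.95 (Ni-E), 2.89 (Ni-W) and 3.48 (HCl3), and without UT replicate 2 the Ni-E value was 0.93. With limma on log2(RPKM + 0.1) the Ni-E value was 0.99 and was not called (adjusted P value = 0.0905).

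ITGB5 and ITGB3, both partners of ITGAV in receptors for vitronectin, were also higher under nickel. ITGB5 measured 8.46 and 9.55 RPKM for UT, 18.4 and 16.2 for Ni-E, 15.8 and 15.6 for Ni-W, and 15.9 and 17.0 for HCl3. All 6 nickel-treated libraries lay above both UT libraries, and the 3 treated groups were within 15.6 to 18.4 RPKM of each other. Against UT the log2 fold change was 0.89 ± 0.14 for Ni-E (adjusted P value = 3.09e-08), 0.77 ± 0.13 for Ni-W (2.59e-08) and 0.81 ± 0.12 for HCl3 (3.41e-10), and it was not called between the treated groups. ITGB3 measured 0.43 and 0.45 RPKM for UT, 1.08 and 1.10 for Ni-E, 2.15 and 2.19 for Ni-W, and 2.64 and 2.35 for HCl3. Its 4 groups did not overlap, with a log2 fold change of 1.25 ± 0.30 for Ni-E (adjusted P value = 0.000776), 2.26 ± 0.24 for Ni-W (2.25e-19) and 2.44 ± 0.23 for HCl3 (5.84e-25) against UT. ITGB3 overlaps LOC102724508 on the opposite strand, and whether the counting used strand was not stated.

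ITGB4 carries the long inner tail that binds the keratin skeleton in hemidesmosomes. It measured 1.44 and 0.91 RPKM for UT, 1.88 and 3.03 for Ni-E, 4.53 and 3.85 for Ni-W, and 5.42 and 5.36 for HCl3. The Ni-E libraries lay between UT and the washed-out groups. The log2 fold change against UT was 1.00 ± 0.26 for Ni-E (adjusted P value = 0.00282), 1.80 ± 0.21 for Ni-W (1.39e-16) and 2.14 ± 0.18 for HCl3 (7.30e-29). With limma the Ni-E call was lost, on log2(RPKM + 1) (0.66, adjusted P value = 0.177) and on log2(RPKM + 0.1) (1.00, 0.166). It was also lost in DESeq2 with a replicate block and GC and length trends removed (0.86, adjusted P value = 0.0888).

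Against these, the partner chains ITGB1, ITGAV, LAMC1 and LAMB1 were not called under nickel. ITGB1, ITGAV and LAMC1 passed the adjusted P value in Ni-E but not the 1.5-fold threshold, with log2 fold changes of -0.33 ± 0.11, -0.36 ± 0.11 and -0.34 ± 0.11 (adjusted P values = 0.0321, 0.0154 and 0.0235). LAMB1, the most widely used beta chain, gave 0.03 ± 0.12 for Ni-E, -0.25 ± 0.11 for Ni-W and 0.22 ± 0.10 for HCl3 against UT and was not called.

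What differed long after nickel had been removed was read from Ni-W against UT. Here 16 of the 32 members tested were called, 15 higher and 1 lower. Of all genes tested, 15.7% were called, 10.9% higher and 4.83% lower. The median log2 fold change was 0.74 over the 34 members with a P value and 0.03 over all such genes. By role, 5 of the 8 chains that bind fibronectin and related ligands were higher (ITGAV, ITGA2B, ITGB3, ITGB5 and ITGB8). Also higher were alpha chains ITGA4 and ITGA9, 2 of 4 collagen-binding chains (ITGA1 and ITGA11) and 2 of 4 laminin-binding chains (ITGA6 and ITGB4). Of the laminin-binding chains, ITGA7 was lower. Of 12 laminin genes, LAMA4, LAMA5, LAMB3 and LAMC1 were higher. 

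ITGA4 gave the largest difference from UT of any member. With ITGB1 it forms a receptor for fibronectin and VCAM1 that is best known from leukocytes. It measured 0.05 and 0.06 RPKM (13 and 10 reads) for UT, 0.19 and 0.21 (43 and 48 reads) for Ni-E, 6.70 and 7.01 (2096 and 1482 reads) for Ni-W, and 4.68 and 4.19 (1171 and 1094 reads) for HCl3. The groups did not overlap, with UT at the bottom and Ni-W at the top. DESeq2 gave log2 fold changes against UT of 1.82 ± 0.65 for Ni-E (adjusted P value = 0.0468), 6.98 ± 0.33 for Ni-W (4.07e-94), which is 127-fold, and 6.34 ± 0.34 for HCl3 (1.52e-74), which is 80.8-fold. Of the leukocyte markers in the same libraries, PTPRC and CD3E were at 0 to 0.04 RPKM, CD68 was at 14.3 to 21.8, and CD14 was called higher than UT in Ni-W (1.29 ± 0.33) and HCl3 (1.23 ± 0.32), and their part in the ITGA4 result was not tested. ITGA4 overlaps CERKL on the opposite strand. The difference under nickel rested on few reads, and with genes of low count kept in the adjustment its adjusted P value was 0.0578. That call was also lost in DESeq2 with a replicate block (1.82, adjusted P value = 0.289). With the block and GC and length trends removed it was lost too (2.02, 0.226), as with limma on log2(RPKM + 1) (0.19, 0.199). It was kept under 12 of the 16 alternatives.

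ITGAV, the alpha chain shared by the vitronectin receptors, measured 17.1 and 18.0 RPKM for UT, 14.2 and 14.2 for Ni-E, 40.7 and 42.0 for Ni-W, and 35.2 and 30.9 for HCl3. Both washed-out groups lay above every UT and Ni-E library. The log2 fold change was 1.20 ± 0.10 for Ni-W against UT (adjusted P value = 5.27e-31), 0.86 ± 0.10 for HCl3 against UT (7.87e-16), 1.54 ± 0.09 for Ni-W against Ni-E (6.80e-64) and 1.20 ± 0.09 for HCl3 against Ni-E (4.09e-40). ITGB8, which with ITGAV binds and activates latent TGF-beta, measured 0.64 and 0.54 RPKM for UT, 0.46 and 0.74 for Ni-E, 1.20 and 1.35 for Ni-W, and 2.76 and 2.45 for HCl3. UT and Ni-E overlapped, Ni-W was above both and HCl3 was the highest. Against UT it changed on the log2 scale by 1.07 ± 0.21 for Ni-W (adjusted P value = 5.24e-06) and 2.08 ± 0.17 for HCl3 (1.09e-30). ITGB6, another partner of ITGAV found in injured epithelium, had no read in any library, and so had ITGA8.

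LAMC1, the gamma chain of most laminins, measured 43.9 and 49.7 RPKM for UT, 38.8 and 38.1 for Ni-E, 82.3 and 88.2 for Ni-W, and 69.5 and 70.3 for HCl3. The groups did not overlap, with Ni-E lowest and Ni-W highest. The log2 fold change against UT was 0.83 ± 0.11 for Ni-W (adjusted P value = 1.47e-13) and 0.52 ± 0.09 for HCl3 (4.19e-07), the latter under 1.5-fold. Against Ni-E it was called in both, at 1.15 ± 0.09 for Ni-W (adjusted P value = 6.63e-37) and 0.85 ± 0.07 for HCl3 (2.28e-29).

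Among the laminin-binding chains, ITGA6, which pairs with ITGB1 or ITGB4, measured 5.80 and 6.64 RPKM for UT, 7.12 and 6.07 for Ni-E, 9.45 and 11.2 for Ni-W, and 11.7 and 10.9 for HCl3. The washed-out libraries lay above the other 4. Against UT the log2 fold change was 0.71 ± 0.14 for Ni-W (adjusted P value = 2.96e-06) and 0.82 ± 0.12 for HCl3 (9.07e-11). In Ni-W it was 0.57 without Ni-W replicate 2, which is under 1.5-fold. ITGA7, a laminin receptor chain best known from muscle, went the other way: it measured 12.8 and 12.4 RPKM for UT, 13.2 and 15.7 for Ni-E, 7.91 and 6.51 for Ni-W, and 8.85 and 9.08 for HCl3. Both washed-out groups were below all UT and Ni-E libraries. DESeq2 gave log2 fold changes against UT of -0.84 ± 0.13 for Ni-W (adjusted P value = 9.94e-09) and -0.55 ± 0.11 for HCl3 (9.56e-06), the latter under 1.5-fold, and -0.86 in HCl3 with the trends in GC content and length taken out. ITGA7 overlaps METTL7B on the opposite strand.

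ITGA1, a collagen-binding chain, measured 1.37 and 1.28 RPKM for UT, 0.73 and 1.11 for Ni-E, 2.18 and 2.03 for Ni-W, and 2.52 and 2.47 for HCl3. Its lowest values were in Ni-E, and Ni-W and HCl3 were above UT without overlap. The log2 fold change against UT was 0.63 ± 0.20 for Ni-W (adjusted P value = 0.00803) and 0.86 ± 0.19 for HCl3 (3.89e-05). In Ni-W the call was lost without UT replicate 2 (0.58, adjusted P value = 0.0615) and without Ni-W replicate 1 (0.58, adjusted P value = 0.102). ITGA1 overlaps PELO on the same strand, so reads of PELO exons could be counted for either.

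Other members were called while staying under 1 RPKM. ITGA11, a collagen-binding chain of fibroblasts, had 2 to 11 reads in UT, 1 to 5 in Ni-E, 53 to 81 in Ni-W and 57 to 87 in HCl3, a log2 fold change against UT of 3.12 ± 0.69 for Ni-W (adjusted P value = 5.43e-05) and 3.24 ± 0.67 for HCl3 (1.41e-05). Without UT replicate 1, which held 11 of its UT reads, these were 4.47 and 4.59. ITGA9 measured 20 and 22 reads for UT, 18 and 20 for Ni-E, 104 and 73 for Ni-W, and 77 and 89 for HCl3, with 1.74 ± 0.48 for Ni-W (adjusted P value = 0.00185) and 1.66 ± 0.48 for HCl3 (0.00294). ITGA2B, the alpha chain of the platelet fibrinogen receptor, measured 11 and 9 reads for UT, 27 and 33 for Ni-E, 67 and 33 for Ni-W, and 44 and 73 for HCl3. Its log2 fold change was 1.97 ± 0.66 for Ni-W (adjusted P value = 0.0122) and 2.25 ± 0.62 for HCl3 (0.00174). These counts were low in UT, and 1 library could end a call: that of ITGA2B in Ni-W was lost without UT replicate 1 (1.85, adjusted P value = 0.0512) or Ni-W replicate 1 (1.72, 0.0788) and in HCl3 without HCl3 replicate 2 (1.87, 0.0519), and that of ITGA9 in HCl3 was lost without UT replicate 1 (1.34, 0.0547). ITGA2, the collagen receptor chain of epithelia and platelets, had 80 to 125 reads in UT, 177 to 215 in Ni-E, 86 to 128 in Ni-W and 157 to 170 in HCl3. It was called only in Ni-W against Ni-E, with a log2 fold change of -1.04 ± 0.29 (adjusted P value = 0.00130). With GC and length trends removed it was also called higher in Ni-E against UT (1.03) and in HCl3 against Ni-W (0.76).

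LAMA4, the laminin alpha chain of vessel walls, measured 6 and 0 reads for UT, 0 and 0 for Ni-E, 66 and 36 for Ni-W, and 42 and 43 for HCl3. Against UT its log2 fold change was 3.84 ± 0.90 for Ni-W (adjusted P value = 1.61e-04) and 3.62 ± 0.92 for HCl3 (5.20e-04). These sizes rest on the 6 reads of UT replicate 1: without UT replicate 2 they were 3.0 and 2.78, and without UT replicate 1, which leaves UT with no read, the fitted values of 7.5 and 7.28 depend on the model and are no bound. Both calls were lost with limma on log2(RPKM + 0.1). Against Ni-E, taking a floor of 3 reads in each library, it was at least 14.95-fold higher in Ni-W and at least 12.89-fold higher in HCl3. Its RPKM values were not proportional to its counts: the transcript length implied by counts and RPKM ran from 3.14 to 7.71 kb between libraries, a ratio of 2.45, while for the other 25 members with enough reads this ratio was at most 1.14. The listed coordinates of LAMA4 span only 112574984 to 112575917 on chromosome 6, so LAMA4 is described by counts.

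**Figure D2:**
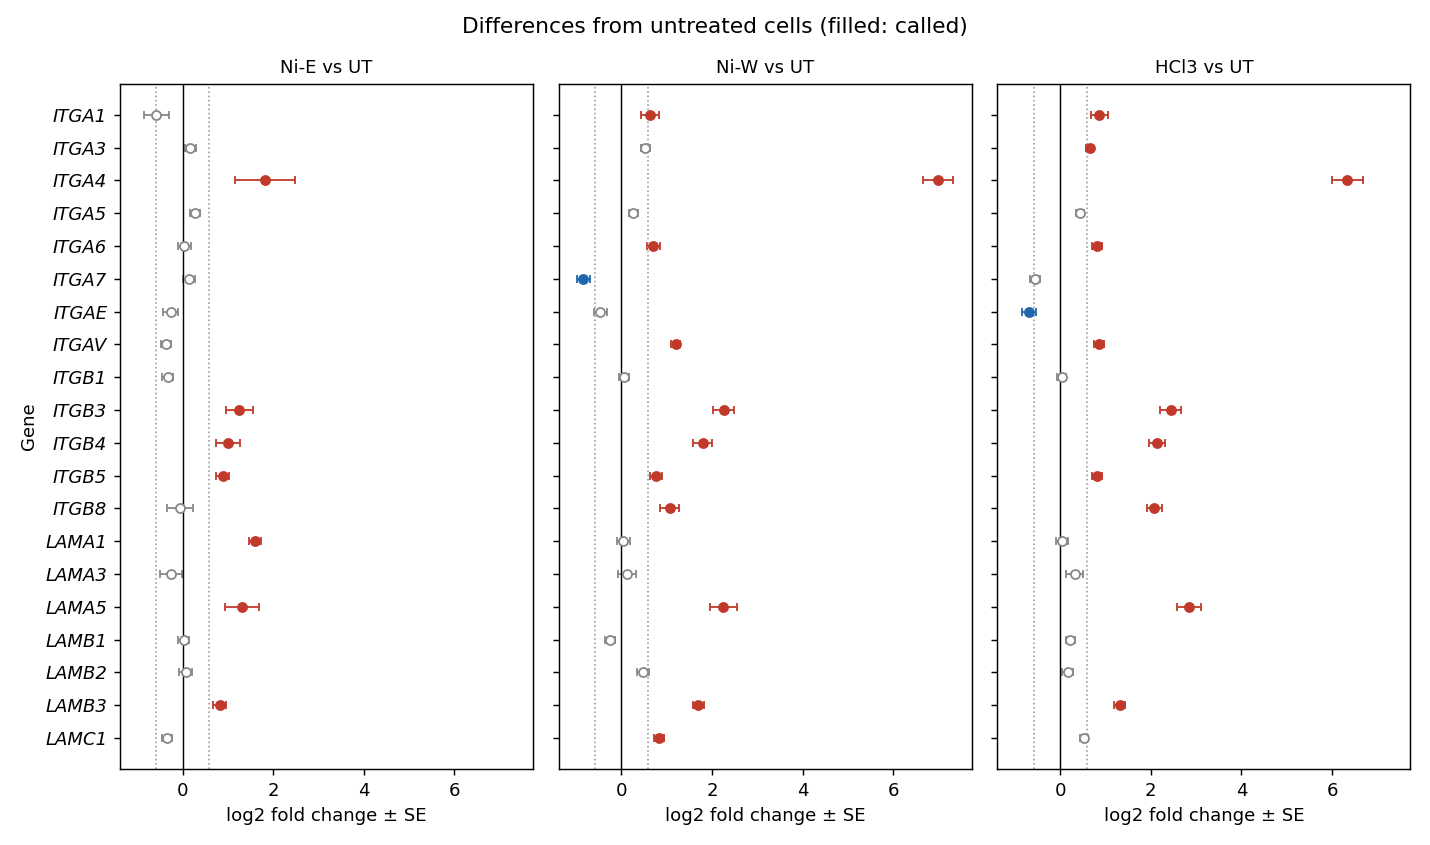
Log2 fold change ± SE (DESeq2, 2 libraries per group) of 20 members in Ni-E, Ni-W and HCl3 against UT, with filled points for called genes (red higher, blue lower), open points for genes not called, and dotted lines at 1.5-fold. ITGA4 reaches 6.98 in Ni-W and 6.34 in HCl3, LAMA1 is called in Ni-E alone, and ITGA7 (Ni-W) and ITGAE (HCl3) are the called genes on the left.

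HCl3 cells were compared with UT in the same way. Again 16 of the 32 members tested were called, 15 higher and 1 lower. Of all genes tested, 14.8% were called, 11.1% higher and 3.74% lower. The median log2 fold change was 0.91 over the 36 members with a P value and 0.03 over all such genes. This comparison shares the UT libraries with those of Ni-E and Ni-W, so the values stand side by side and the likeness of the lists is no independent result. ITGA3 was called here and measured 76.9 and 77.3 RPKM for UT, 97.6 and 82.9 for Ni-E, 111 and 117 for Ni-W, and 125 and 126 for HCl3. The order was UT, Ni-E, Ni-W and HCl3 without overlap, and the log2 fold change was 0.65 ± 0.08 for HCl3 (adjusted P value = 6.45e-13) and 0.53 ± 0.10 for Ni-W (4.14e-07), the latter under 1.5-fold. With the trends in GC content and length taken out, the HCl3 change was 0.30 and was no longer called.

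ITGAE was the member called lower in HCl3. It measured 7.36 and 6.08 RPKM for UT, 6.11 and 5.54 for Ni-E, 5.01 and 5.00 for Ni-W, and 4.16 and 4.52 for HCl3. UT and Ni-E overlapped and HCl3 was the lowest. The log2 fold change against UT was -0.69 ± 0.15 for HCl3 (adjusted P value = 3.51e-05) and -0.46 ± 0.15 for Ni-W (0.01), the latter under 1.5-fold. Without UT replicate 1 the HCl3 change was -0.54, also under 1.5-fold. ITGAE overlaps GSG2 on the opposite strand, and its 10 Mb window had a median of -0.41 in HCl3 and -0.47 in Ni-W over 146 and 148 genes, whose part in the result was not tested.

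The washed-out groups were also compared with Ni-E directly, which tests whether the changes from UT differ. In Ni-W 17 of the 34 members tested were called, 14 higher and 3 lower. Of all genes tested there, 20.5% were called, 11.7% higher and 8.81% lower. In HCl3 15 of the 34 members tested were called, 13 higher and 2 lower. Of all genes tested there, 17.1% were called, 10.4% higher and 6.78% lower. ITGA4 was 35.3-fold higher in Ni-W (5.14 ± 0.20, adjusted P value = 2.06e-137) and 22.5-fold higher in HCl3 (4.49 ± 0.21, 8.96e-95) than in Ni-E. ITGA7 was lower than in Ni-E in Ni-W (-0.99 ± 0.13, adjusted P value = 1.57e-12) and HCl3 (-0.70 ± 0.11, 2.40e-09), as was LAMA1. ITGA1 was higher by 1.20 ± 0.24 for Ni-W (3.06e-06) and 1.43 ± 0.22 for HCl3 (1.50e-09). Of the chains called higher in Ni-E than in UT, ITGB3, ITGB4 and LAMA5 were higher again than in Ni-E in both washed-out groups and LAMB3 in Ni-W, while ITGB5 was called in neither. Single libraries decided 2 calls of Ni-W against Ni-E: ITGB4 (0.78 ± 0.19) was at 0.50 with an adjusted P value of 0.0580 without Ni-E replicate 1, and ITGA6 (0.65 ± 0.13) was at 0.52 without Ni-E replicate 2 or without Ni-W replicate 2, and at 0.43 with GC and length trends removed.

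**Figure D3:**
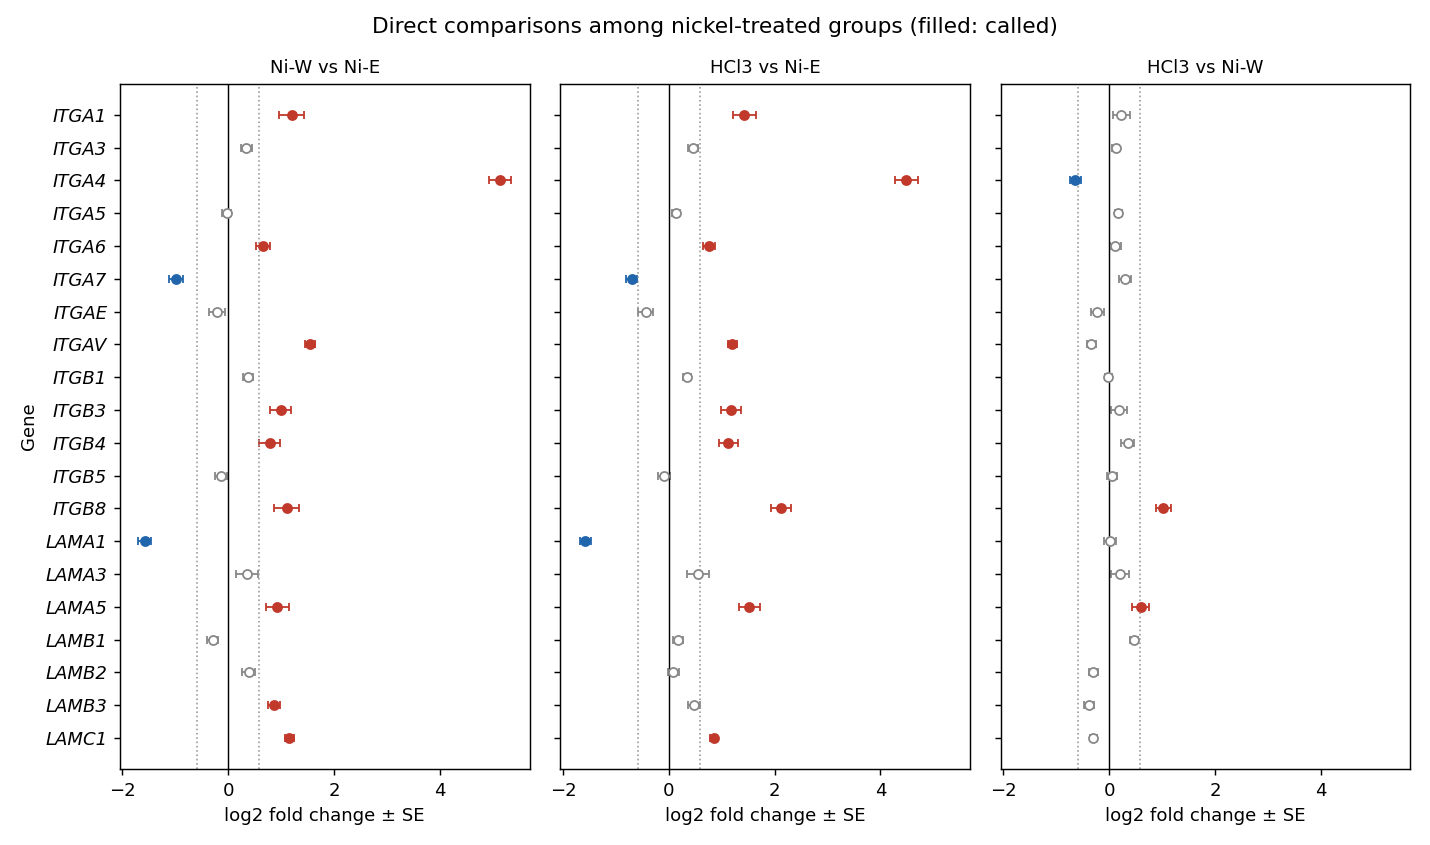
Log2 fold change ± SE (DESeq2, 2 libraries per group) of 20 members in direct comparisons of Ni-W and HCl3 with Ni-E and of HCl3 with Ni-W, with symbols and lines as in the plot of differences from untreated cells. LAMA1 lies at -1.58 against Ni-E in both washed-out groups, and in HCl3 against Ni-W the points lie between -0.64 (ITGA4) and 1.02 (ITGB8).

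HCl3 and Ni-W differed in few members. Of all genes tested, 4.77% were called, 3.1% higher and 1.66% lower. Of the 31 members tested 3 were called, ITGA4 lower in HCl3 and ITGB8 and LAMA5 higher. The other 35 of the 38 members, tested or not, were not called. The difference was -0.64 ± 0.11 for ITGA4 (adjusted P value = 1.24e-07), 1.02 ± 0.14 for ITGB8 (2.16e-11) and 0.60 ± 0.16 for LAMA5 (0.00260). ITGA4 was lost as a call without HCl3 replicate 2 (-0.57, adjusted P value = 0.0609) and with GC and length trends removed (-0.53), and LAMA5 (0.41 with the trends removed) when any of the 4 libraries was left out, with adjusted P values of 0.270 to 0.421. With the trends removed the split of calls was 2 higher and 0 lower, beside 4.64% of all genes tested. Among members under the fold threshold, LAMB1 had a log2 fold change of 0.47 ± 0.08 in HCl3 (adjusted P value = 1.71e-07), at 17.9 and 17.7 RPKM against 12.8 and 12.7 in Ni-W.

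The make-up of each family was read as the share of each chain in the summed RPKM of its family, as a description without a test, and the laminin alpha sum includes LAMA4, whose RPKM did not follow its counts. ITGA3 held 45.3% (UT), 46.5% (Ni-E), 46.1% (Ni-W) and 48.4% (HCl3) of the integrin alpha sum. ITGAV went from 10.3 ± 0.4% (SD, n = 2) in UT and 7.33 ± 0.22% for Ni-E to 16.7 ± 0.1% for Ni-W and 12.7 ± 1.1% for HCl3, and ITGA7 from 7.40 ± 0.15% and 7.45 ± 1.12% to 2.92 ± 0.45% and 3.46 ± 0.09%. ITGA4 was 0.0324% of the alpha sum in UT and 2.77% in Ni-W. ITGB1 held 93.5 ± 0.3% of the beta sum in UT and 86.3 to 88.2% in the treated groups, in which ITGB5 held 7.94 to 11.04% compared with 5.16% in UT. Of the laminin alpha sum LAMA1 held 67.1 ± 2.2% in UT, 85.6 ± 2.2% for Ni-E, 53.4 ± 2.7% for Ni-W and 47.7 ± 0.5% for HCl3, while LAMA5 went from 4.40% (UT) and 4.64% (Ni-E) to 16.4% (Ni-W) and 21.9% (HCl3). LAMB3 made up 14.9 ± 0.3% of the beta chains in UT, 23.0 ± 3.1% for Ni-E, 32.9 ± 0.2% for Ni-W and 27.9% in HCl3, and LAMC1 over 99% of the gamma chains throughout. The integrin alpha sum itself was 170 ± 0.5 RPKM in UT, 194 ± 6 for Ni-E, 248 ± 4 for Ni-W and 259 ± 2 for HCl3.

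**Figure D4:**
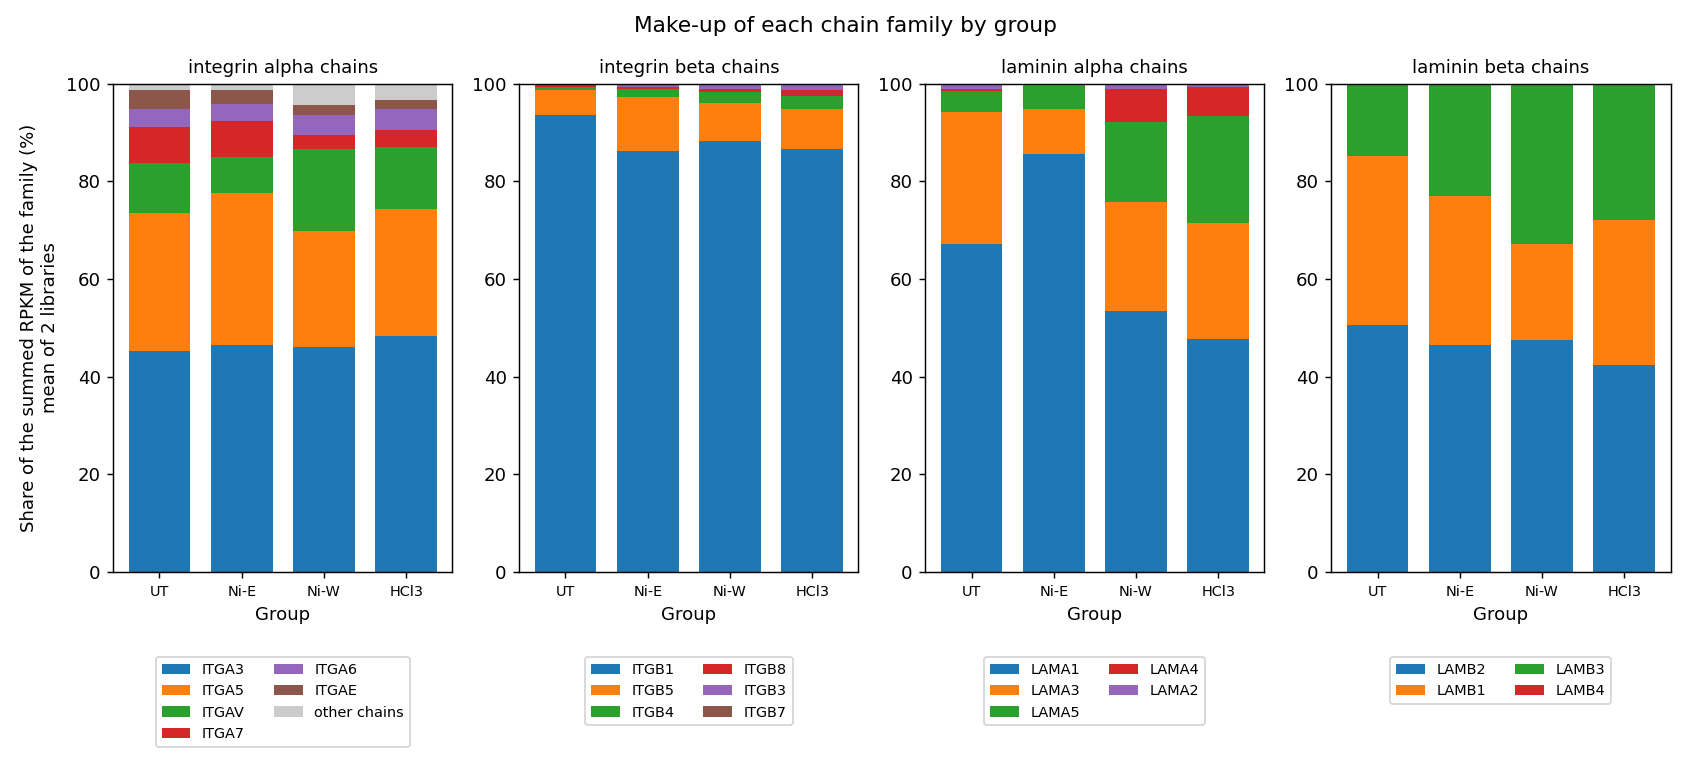
Share (%) of each chain in the summed RPKM of its family, mean of the 2 libraries of each group, with bars stacked to 100%. ITGAV reaches 16.7% of the integrin alpha sum in Ni-W, LAMA1 reaches 85.6% of the laminin alpha sum in Ni-E, and LAMB3 reaches 32.9% of the laminin beta sum in Ni-W.

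The genes around these receptors were read from fixed lists, beside 5.8%, 15.7% and 14.8% of all genes tested that were called in Ni-E, Ni-W and HCl3 against UT. The lists are short, and their counts are a description. Of 22 integrin activators and adaptors, all 22 tested, the comparison with UT called 1 lower for Ni-E, and 4 higher with 1 lower for Ni-W and again for HCl3. FERMT1, an epithelial kindlin that activates integrins, fell by 2.20 ± 0.21 for Ni-W (adjusted P value = 1.20e-23) and by 1.20 ± 0.19 for HCl3 (2.89e-09), and PARVG rose by 1.62 ± 0.33 for Ni-W and 1.23 ± 0.34 for HCl3. Of 13 basement membrane partners and other laminin receptors, of which 12 were tested for Ni-E and 13 for the others, it called 1 higher for Ni-E, 4 higher with 1 lower for Ni-W, and 8 higher with 1 lower for HCl3. The collagen chain gene COL4A4 rose by 4.88 ± 0.47 for Ni-W from 5 and 10 reads in UT, and BCAM, a receptor for laminins with the LAMA5 chain, by 0.74 ± 0.14. Of 4 hemidesmosome partners, 3 of them tested, 1 was called in the comparisons with UT, lower in Ni-E.

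Of 12 other integrin ligands, 8 of them tested against UT, with the same 5.8%, 15.7% and 14.8% of all genes called, 1 was higher with 1 lower for Ni-E, 3 higher with 1 lower for Ni-W, and 5 higher for HCl3. FN1, which encodes fibronectin, measured 6.97 and 6.99 RPKM for UT, 4.13 and 6.65 for Ni-E, 82.1 and 82.8 for Ni-W, and 117 and 121 for HCl3. Against UT it changed on the log2 scale by 3.54 ± 0.10 for Ni-W (adjusted P value = 5.08e-290) and 4.05 ± 0.09 for HCl3. VTN, which encodes vitronectin, rose by 1.26 ± 0.25 for Ni-W and 0.72 ± 0.26 for HCl3.

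Positions were compared because Ni-W comes from a clone. In hg19, ITGA4 (chr2:182321619-182402468) and ITGAV (chr2:187464932-187545629), both on the plus strand, lie in the same 10 Mb window. Its 15 genes with a mean normalised count of at least 50 had a median log2 fold change against UT of 0.56 in Ni-W and 0.44 in HCl3, both members included, and its 12 such genes gave -0.16 in Ni-E. Window medians in Ni-W and HCl3 were 0.44 and 0.36 at ITGA6 (chr2:173292314-173371181), 0.36 and 0.46 at ITGB8 (chr7:20370725-20455382), 0.41 and 0.10 at LAMB3 (chr1:209788218-209825820, minus strand), 0.30 and 0.27 at LAMA5 (chr20:60884116-60942368, minus strand) and 0.23 and 0.03 at LAMC1 (chr1:182992595-183114727). At LAMA1 (chr18:6941743-7117813, minus strand) they were -0.35 and -0.55. Of other members called higher than UT, ITGB5 had window medians of 0.37 and 0.09 and ITGA11 of 0.34 and 0.25. The remaining windows of members called higher than UT had medians near or below 0, with -0.01 and 0.01 at ITGB3. They were -0.09 and 0.02 at ITGB4, -0.22 and 0.01 at ITGA1, -0.10 and -0.33 at ITGA9 and -0.15 and -0.25 at LAMA4. The part of these windows in the values of the members was not tested.

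The remaining members can be given by range. Of the 17 members called in no comparison, 5 reached 1 RPKM (ITGA5, ITGB1, LAMA3, LAMB1 and LAMB2). The others were ITGA8, ITGA10, ITGAD, ITGAL, ITGAM, ITGAX, ITGB2, ITGB6, ITGB7, LAMA2, LAMB4 and LAMC3, none of which exceeded 26 reads in a library. ITGA8, ITGB6 and ITGAL, which had a single read in 1 HCl3 library, were tested in no comparison, and 28 members were tested in all 6. Tested members whose 2 groups did not overlap in normalised count were counted beside the share of all genes tested. Against UT they numbered 22 of 29 for Ni-E, 26 of 32 for Ni-W and 23 of 32 for HCl3, beside 58.7%, 69.3% and 70.7%. They numbered 31 of 34 for Ni-W and 28 of 34 for HCl3 against Ni-E, beside 74.1% and 74.5%. For HCl3 against Ni-W they numbered 21 of 31, beside 62.1%. With 2 libraries in each group no exact permutation test of a single gene can give a P value under 0.333, so the adjusted P values rest on the spread that DESeq2 shares across genes.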

How the data were processed

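RNA-Seq was available for 8 libraries of BEAS-2B cells in 4 groups of 2, grouped by their labels. The authors aligned reads to hg19 with STAR 2.4, removed reads with several hits and deposited, per RefSeq gene, raw counts and RPKM values made with BioWardrobe; whether strand was used is not given in the sources used here. The deposited counts were tested with DESeq2 1.42.0 (R 4.3.3; Wald test, two-sided, with size factors by the median of ratios, default independent filtering, Benjamini-Hochberg adjustment), fitted over all genes on the 4 libraries of each pair. Libraries held 26383920 to 45692298 counted reads, and a floor of 3 reads was 6.57e-06 to 1.14e-05% of a library, covering counting error only.

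Members named in full were called in at least 1 of 6 comparisons and reached 1 RPKM in both libraries of a group, and other called members were named by counts. The members and lists were chosen with earlier results of these data known. Alternatives were edgeR 4.0.16, TMM size factors, all 8 libraries in 1 fit, a mean count of at least 10, no filter, other fold thresholds, limma 3.58.1 on log2(RPKM + 1) or log2(RPKM + 0.1), removal of trends with GC content and length, a replicate block, and each library left out. The limma fits and those with 1 library left out used the libraries of all 4 groups. The latter thus changed the model as well as the libraries. The DESeq2 step was tested on simulated counts before use. Promoters came from a RefSeq table of GRCh38.p14. Values of some listed genes are not reported here.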

Additional observations from a re-analysis of the deposited data

Results flagged for a closer look

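The 3 members below differed between the HCl3 and Ni-W groups, whose labels give the same treatment. This rests on the main DESeq2 test of the difference itself, so in that fit their changes from UT differ between the groups. In this comparison log2 fold changes correlated with GC content at 0.381 (Spearman) over 12126 genes. Against UT this correlation was 0.394 for Ni-E, 0.047 for Ni-W and 0.281 for HCl3. Against Ni-E it was -0.178 for Ni-W and 0.006 for HCl3. Of the 3 members, ITGB8 was 1.02 higher in HCl3 than in Ni-W on the log2 scale (adjusted P value = 2.16e-11). ITGA4 had a log2 fold change of -0.64 (adjusted P value = 1.24e-07). With GC and length trends removed ITGA4 was at -0.53 and LAMA5 at 0.41, both under 1.5-fold, while ITGB8 was at 1.17 and stayed called. LAMA5 was 0.60 higher (adjusted P value = 0.00260), a call that no fit with 1 library left out kept.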

How the results depend on the processing

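Fits with 1 library left out drew on all 4 groups, so they differ from the main fits of each pair in more than the library. Of 74 calls of members over the 6 comparisons, all 74 kept their direction under every alternative and 25 kept the call under every one. None was lost with edgeR, TMM size factors, all 8 libraries in 1 fit or a mean count of at least 10, 1 without a filter, 4 with GC and length trends removed, 10 when 1 library was left out, 24 at 2-fold, and 31 and 13 with limma on log2(RPKM + 1) and log2(RPKM + 0.1). With RPKM + 1, the calls were 3 (Ni-E against UT), 10 (Ni-W against UT), 8 (Ni-W against Ni-E) and 0 (HCl3 against Ni-W). Of all genes tested, 1.29%, 5.34%, 7.7% and 0.783% were called in these comparisons, in that order. The last comparison also gave 0 with RPKM + 0.1, beside 1.33% of all genes. There limma gave 1 and 2 members at an unadjusted P under 0.05 past 1.5-fold. For the same comparison edgeR called 4 members and DESeq2 3, beside 6.83% and 4.77% of all genes tested. At 2-fold the calls were 10 (HCl3 against UT), 11 (Ni-W against Ni-E) and 1 (HCl3 against Ni-W), and 9 in the last without a fold threshold. Beside these, 8.3%, 10.1%, 2.47% and 16.6% of all genes tested were called. Median log2 fold changes of members with RPKM + 1 were 0.01, 0.17 and 0.22 for Ni-E, Ni-W and HCl3 against UT, 0.09 and 0.17 for Ni-W and HCl3 against Ni-E and 0.02 for HCl3 against Ni-W. With RPKM + 0.1 they were 0.41 and 0.42 (Ni-W and HCl3 against UT), 0.36 and 0.38 (against Ni-E). For HCl3 against UT and Ni-E they were 0.77 and 0.65 with edgeR and 0.82 and 0.67 with a mean count of at least 10. For Ni-W and HCl3 against Ni-E they were 0.55 and 0.61 with the trends removed. The cause was not tested. Leaving out 1 library gave 7 to 9, 14 to 16 and 14 to 17 calls for Ni-E, Ni-W and HCl3 against UT, 16 to 17 and 15 to 17 against Ni-E and 1 to 2 for HCl3 against Ni-W, with medians of 0.1 to 0.23, 0.63 to 0.83, 0.84 to 0.86, 0.5 to 0.59, 0.46 to 0.86 and 0.0 to 0.14.

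The replicate numbers share only a suffix, and deviations of same-numbered libraries correlated at -0.145 to 0.184 over 13856 genes. With a replicate block the calls were 5, 15 and 15 for Ni-E, Ni-W and HCl3 against UT, 16 and 15 against Ni-E and 2 for HCl3 against Ni-W. Of all genes tested, 3.65%, 14.4%, 12.1%, 18.4%, 15.4% and 3.45% were called, in that order. With the numbers crossed, an alternative chosen after seeing the data, 16 members were called for HCl3 against UT, beside 12.5% of all genes tested. With the replicate block and both trends removed, 4 members (Ni-E against UT) and 1 (HCl3 against Ni-W) were called. Beside these stood 2.93% and 3.24% of all genes tested. The medians of members were then 0.54 and 0.61 for Ni-W and HCl3 against Ni-E. Members under 1 RPKM had few reads, which limits their precision.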
